A study of Mus musculus with 12 samples.

Results

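*Stat2*, *Irf1*, *Irf7*, *Isg15*, *Ifit1*, *Ifit3*, *Oasl2*, *Rsad2* and *Bst2* are interferon-stimulated genes, and they were followed by name through the RNA-seq of mice that lack the intestinal *Ctnnb1* enhancer ieCtnnb1. All 9 genes were found among the 54532 genes of the crypt table and again in the tumor table, and all 9 passed the filter for testing in both. Small intestinal crypts came from 3 wild-type and 3 *Ctnnb1Δi.enh* libraries (genotype ieCtnnb1KO in the labels), and colon tumors from 3 *Apc* Min/+ and 3 *Ctnnb1Δi.enh*;*Apc* Min/+ libraries. All mice were untreated adults on a C57BL/6 background. The paper states the age of the tumor mice but not that of the mice whose crypts were sequenced, so age can differ between the tissues. The enhancer was deleted in the germ line on both alleles, so every cell of the knockout mice lacks it. Both tumor groups carry the Min allele, a nonsense mutation of *Apc*, and the crypt groups do not. Crypts were released with EDTA and passed through a filter that holds back villi, whereas tumors were taken as whole tissue with their stroma and immune cells. Each group came from 3 mice, and the labels number its 3 libraries without tying each to a mouse, so that p-values measure the spread between these libraries.

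Interferons are secreted signals of antiviral defense. Type I interferons (alpha and beta) act on nearly all cells through IFNAR1 and IFNAR2, type III interferons (lambda) act mainly on epithelia through IFNLR1 and IL10RB, and interferon gamma, the type II interferon, comes from lymphocytes and acts through IFNGR1 and IFNGR2. Type I and III receptors lead to ISGF3, a complex with STAT2 and IRF9 that binds the interferon-stimulated response element (ISRE), whereas interferon gamma acts mainly through the gamma-activated site (GAS). In the intestine, a low level of this response is known to be present without infection. Among the 9 genes, *Stat2*, *Irf1* and *Irf7* encode transcription factors of the pathway. *Isg15* encodes a ubiquitin-like modifier, *Ifit1* and *Ifit3* encode tetratricopeptide repeat proteins of which IFIT1 binds viral RNA, and *Oasl2* encodes an oligoadenylate synthetase-like protein. *Rsad2* encodes viperin, an antiviral radical SAM enzyme, and *Bst2* encodes tetherin, a membrane protein that holds budding viruses at the cell surface.

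Promoters of the 9 genes were searched for both elements because several of these genes were high or low together in the same libraries. RefSeq promoters on GRCm38.p6, from 250 bases before to 50 after the start, were matched for 9 of the 9 genes. The ISRE core was searched as GAAANNGAAA on both strands (TTTCNNTTTC when read from the other strand), and the GAS as TTCNNNGAA, which reads the same on both. An ISRE core was found in 6 of the 9 promoters (66.7%), against 690 of 20484 promoters of the same length (3.37%). A GAS match was found in 2 of the 9 (22.2%), against 1645 of 20484 (8.03%). These shares are not particular to the 9 genes. An ISRE core was also found in 10 of 12 promoters of interferon gamma targets (83.3%) and 11 of 20 of interferon genes (55%). For other type I and III effectors it was 19 of 44 (43.2%). A GAS match was found in 6 (50%), 10 (50%) and 7 (15.9%) of these lists, in the same order. Other lists held the ISRE core less often, with 0 of 5 for receptors and 1 of 8 for kinases, STAT and IRF factors (12.5%). It was found in 3 of 10 promoters of nucleic acid sensors and adaptors (30%) and 1 of 5 of negative regulators (20%). Only matched promoters are counted, which for interferon gamma targets were 12 of 24 listed genes. The stretches that hold the matches are given 5′ to 3′ on the strand of the gene, with up to 30 bases on each side and the matches in capitals.
Isg15 (chr4:156200845-156200926, minus strand): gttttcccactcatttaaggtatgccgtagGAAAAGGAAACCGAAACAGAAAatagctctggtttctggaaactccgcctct
Ifit1 (chr19:34640755-34640843, plus strand): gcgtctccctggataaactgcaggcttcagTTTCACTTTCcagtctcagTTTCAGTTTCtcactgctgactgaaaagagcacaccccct
Ifit3 (chr19:34583343-34583446, plus strand): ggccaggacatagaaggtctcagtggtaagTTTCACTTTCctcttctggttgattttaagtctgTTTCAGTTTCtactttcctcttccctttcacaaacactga
Rsad2 (chr12:26456533-26456602, minus strand): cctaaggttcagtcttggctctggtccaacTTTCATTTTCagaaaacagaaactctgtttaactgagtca
Bst2 (chr8:71537557-71537638, minus strand): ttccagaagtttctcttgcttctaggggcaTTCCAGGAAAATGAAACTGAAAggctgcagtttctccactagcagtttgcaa
Stat2 (chr10:128270248-128270315, plus strand): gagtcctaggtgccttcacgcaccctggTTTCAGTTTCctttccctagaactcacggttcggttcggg
Irf1 (chr11:53769894-53769962, plus strand): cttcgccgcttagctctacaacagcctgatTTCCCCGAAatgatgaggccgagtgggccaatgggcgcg
In *Isg15*, 3 ISRE cores overlap in series and run from 78 to 57 bases before the start. *Ifit1* and *Ifit3* have 2 each, *Bst2* has 2 overlapping cores and a GAS match that overlaps the first of them, and *Rsad2* and *Stat2* have 1 each. *Irf1* has no ISRE core and a single GAS match. In *Irf7* and *Oasl2* neither was found in this window, which says only that these letters are not there.

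The 12 libraries held 14457896 to 16156712 fragments on genes. Expression is given as FPKM (fragments per kilobase of gene, scaled to depth), so that genes can be compared per length within a table. The crypt and tumor tables were normalized separately, so levels of the 2 tissues are set side by side without a test. *Ctnnb1*, the gene next to the deleted enhancer, served as a check of the labels. It was at 121, 134 and 123 FPKM in wild-type and 102, 104 and 105 FPKM in *Ctnnb1Δi.enh* crypts, and at 299, 363 and 358 FPKM in *Apc* Min/+ and 279, 248 and 250 FPKM in *Ctnnb1Δi.enh*;*Apc* Min/+ tumors. In both tissues each knockout library was below each control library (exact permutation test, two-sided p = 0.1, the smallest that 3 against 3 can give). Some libraries stood apart from their group. Wild-type crypt replicate 3 held the lowest FPKM of 3979 of the 14176 tested genes (28.1%), and for the interferon-stimulated genes *Apc* Min/+ tumor replicate 1 stood apart most, as described with the tumors.

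In crypts, the values with and without the enhancer overlapped for all 9 genes, and none of the differences passed the test. The order of their levels in wild-type crypts ran from *Irf1* (mean 43.5 FPKM) through *Irf7* (20.6), *Isg15* (19.5), *Bst2* (15.2), *Oasl2* (12.9), *Stat2* (11.3) and *Ifit1* (9.18) to *Ifit3* (3.01) and *Rsad2* (0.902). *Irf1* was above all others in each wild-type library, and *Ifit3* and *Rsad2* were each separated from the gene above them, while neighbours from *Irf7* to *Ifit1* overlapped. In *Ctnnb1Δi.enh* crypts the same separations were seen, with *Irf1* highest (40.5 FPKM) and *Rsad2* lowest (0.756 FPKM). *Bst2* (14.5 FPKM) and *Isg15* (13.6 FPKM) had exchanged places, within their spread.

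Of the factors, *Irf1* (ENSMUSG00000018899; GRCm38 chromosome 11, 53770014 to 53778374, plus strand) was the steadiest, at 40.8, 49.5 and 40.3 FPKM in wild-type and 41.4, 44.9 and 35.2 FPKM in *Ctnnb1Δi.enh* crypts. The groups overlapped, with a log2 fold change of -0.10 (95% interval -0.45 to 0.24; adjusted p = 0.942 from limma). *Stat2* (ENSMUSG00000040033; chromosome 10, 128270559 to 128292849, plus strand) was at 9.34, 11.8 and 12.8 FPKM in wild-type and 10.4, 7.92 and 12.6 FPKM in knockout crypts. Its lowest value lay in knockout replicate 2, and the log2 fold change was -0.14 (-0.60 to 0.33; adjusted p = 0.942 from limma). *Irf7* (ENSMUSG00000025498; chromosome 7, 141262706 to 141266481, minus strand), which is itself induced by interferon and drives type I interferon genes, varied more. It was at 11.8, 17.3 and 32.6 FPKM in wild-type and 20.3, 13.3 and 20.7 FPKM in knockout crypts, a log2 fold change of -0.08 (-0.94 to 0.78; adjusted p = 0.989 from limma). Wild-type replicate 3 was 2.25 times the mean of the other 2 wild-type libraries.

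The same library stood out for *Isg15* (ENSMUSG00000035692; chromosome 4, 156199424 to 156200818, minus strand). FPKM of *Isg15* was 12.5, 13.3 and 32.8 in wild-type and 15.2, 11.5 and 14.2 in *Ctnnb1Δi.enh* crypts. Its log2 fold change was -0.37 (-1.21 to 0.47; adjusted p = 0.912 from limma), and without wild-type replicate 3 it was 0.07. *Ifit1* (ENSMUSG00000034459; chromosome 19, 34640871 to 34650009, plus strand) was at 9.56, 8.72 and 9.27 FPKM in wild-type crypts, a narrow range, and at 11.4, 6.54 and 12.8 FPKM in knockout crypts. *Oasl2* (ENSMUSG00000029561; chromosome 5, 114896936 to 114912234, plus strand) followed the same course, with 11.9, 12.6 and 14.2 FPKM in wild-type and 15.4, 8.11 and 15.9 FPKM in knockout crypts. For both genes knockout replicates 1 and 3 were above each wild-type library and knockout replicate 2 was below each. *Ifit3* (ENSMUSG00000074896; chromosome 19, 34583531 to 34588731, plus strand) was at 3.18, 1.76 and 4.09 FPKM in wild-type and 5.46, 1.78 and 3.14 FPKM in knockout crypts, with 47 to 155 fragments behind a value. *Rsad2* (ENSMUSG00000020641; chromosome 12, 26442746 to 26456452, minus strand) was low, at 0.715, 0.709 and 1.28 FPKM in wild-type and 0.581, 0.372 and 1.31 FPKM in knockout crypts, from 27 to 87 fragments. *Bst2* (ENSMUSG00000046718; chromosome 8, 71534255 to 71537456, minus strand) was at 18.0, 11.4 and 16.2 FPKM in wild-type and 14.5, 15.5 and 13.4 FPKM in knockout crypts. The log2 fold changes of these 5 genes lay between -0.20 for *Rsad2* and 0.12 for *Ifit3*, and their groups overlapped.

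**Figure D1:**
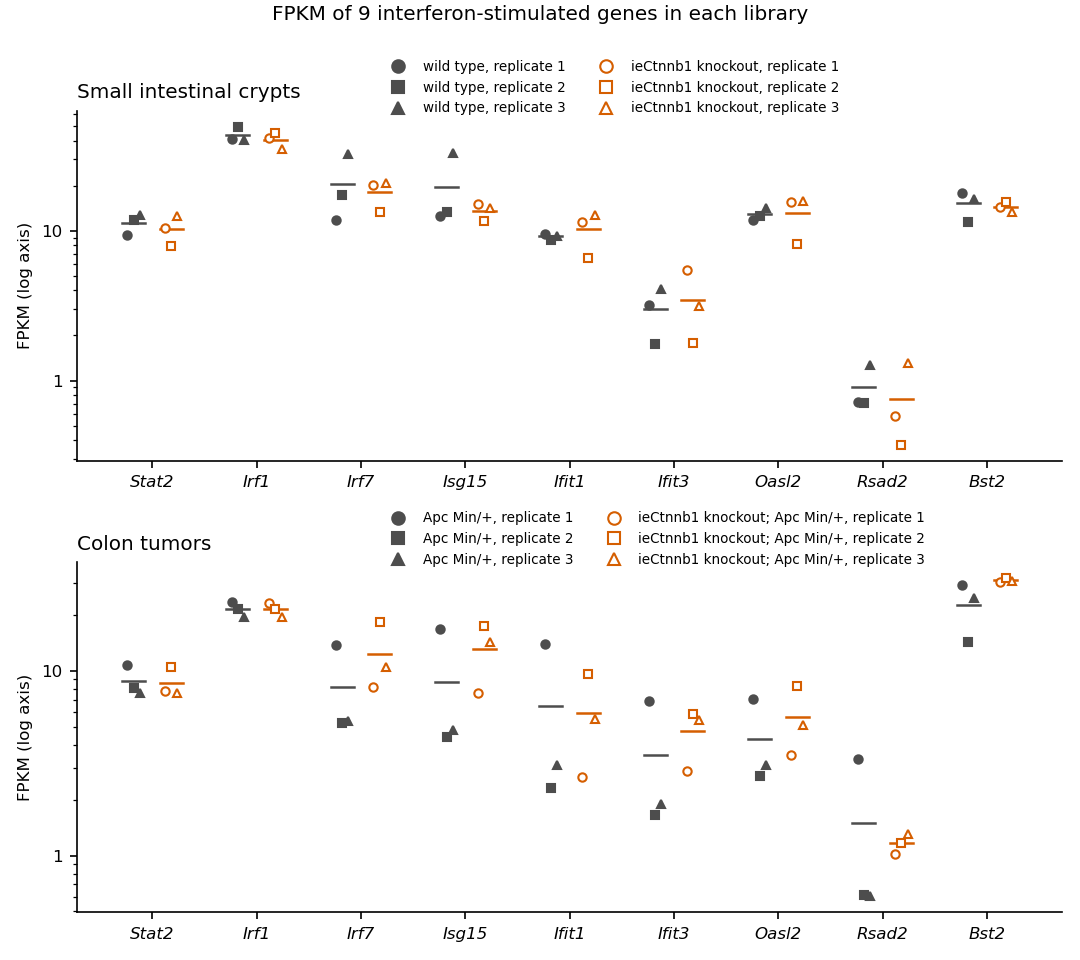
FPKM of the 9 genes on a log axis in crypts (top) and colon tumors (bottom). Points are single libraries, with a symbol for each replicate number, filled for controls and open for knockouts, and bars are group means (n = 3). In crypts the groups overlap for all 9 genes, and in tumors *Apc* Min/+ replicate 1 lies above the other 2 *Apc* Min/+ libraries for every gene.

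None of the 9 genes had an adjusted p under 0.05 in crypts, as for the whole table, in which 0 of 14176 genes (0%) were called by limma with Benjamini-Hochberg adjustment and also 0 by voom on recovered fragments. None of the 9 had an unadjusted p under 0.05, against 494 of all tested genes higher (3.48%) and 335 lower (2.36%) in *Ctnnb1Δi.enh* crypts. None had groups that did not overlap, against 6.79% higher and 5.15% lower. On the log2(FPKM + 0.5) scale, where changes of weakly expressed genes such as *Rsad2* come out too small, 2 genes were higher and 7 lower, also under each other scaling, with a median log2 fold change of -0.08 beside 0.01 over all tested genes. These and later counts of higher and lower genes go by the difference of mean log2 values, which for *Oasl2* was -0.03 although its mean FPKM was 12.9 in wild-type and 13.1 in knockout crypts. The direction rested on single libraries: without knockout replicate 2 the count was 6 higher and 3 lower, with *Ifit1* alone at an unadjusted p under 0.05 (log2 fold change 0.38), beside 2.9% of all tested genes higher, and *Ifit1* and *Oasl2* not overlapping, beside 11.6% higher. Without wild-type replicate 3 it was also 6 higher and 3 lower, and without knockout replicate 1 it was 0 higher and 9 lower. The 95% intervals in crypts reached from -1.21 for *Isg15*, -0.97 for *Rsad2* and -0.94 for *Irf7* up to 1.06 for *Ifit3*, so changes of these sizes were not excluded.

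**Figure D2:**
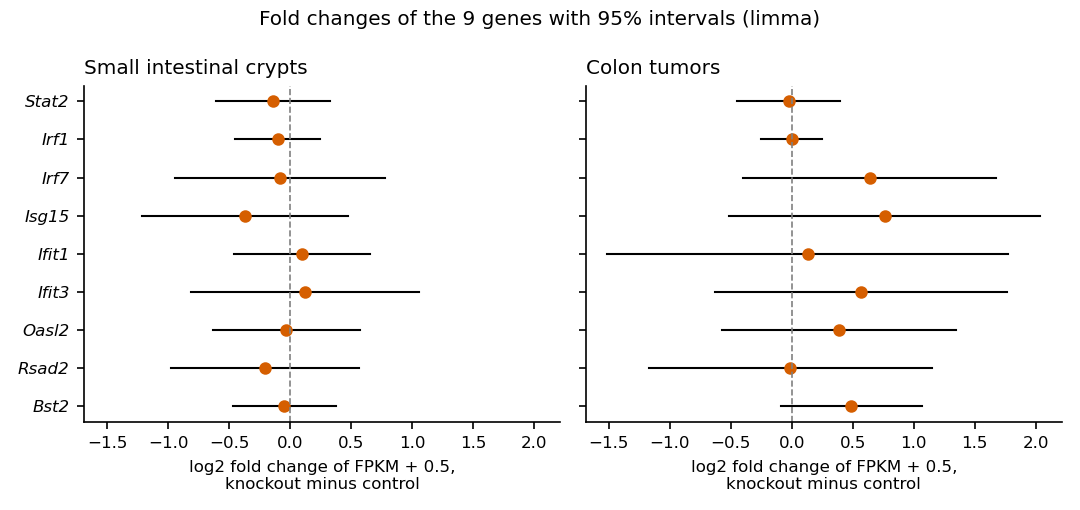
Log2 fold changes of the 9 genes, knockout minus control, on the scale of log2(FPKM + 0.5), in crypts (left) and colon tumors (right). Points are limma estimates and lines are 95% intervals from 3 against 3 libraries. All 18 intervals include 0, and those of *Isg15*, *Ifit1*, *Ifit3* and *Rsad2* in tumors are wide, as for *Ifit1* from -1.51 to 1.77.

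In colon tumors, the factors *Stat2* and *Irf1* had log2 fold changes near 0, *Bst2* was higher in each *Ctnnb1Δi.enh*;*Apc* Min/+ library than in each *Apc* Min/+ library, and the other 6 genes varied several-fold between libraries of the same genotype. The order of the levels in *Apc* Min/+ tumors was *Bst2* (mean 22.8 FPKM), *Irf1* (21.6), *Stat2* (8.82), *Isg15* (8.67), *Irf7* (8.15), *Ifit1* (6.47), *Oasl2* (4.29), *Ifit3* (3.5) and *Rsad2* (1.51). Of these neighbours only *Irf1* and *Stat2* were separated in all 3 *Apc* Min/+ libraries. In *Ctnnb1Δi.enh*;*Apc* Min/+ tumors *Bst2* (30.9 FPKM) was separated from *Irf1* (21.6), *Irf1* from *Isg15* (13.2), and *Ifit3* (4.72) from *Rsad2* (1.17).

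*Irf1* was at 23.6, 21.6 and 19.6 FPKM in *Apc* Min/+ and at 23.4, 21.6 and 19.7 FPKM in *Ctnnb1Δi.enh*;*Apc* Min/+ tumors. Its log2 fold change was 0.00 with the narrowest interval of the 9 genes (-0.25 to 0.25; adjusted p = 0.996 from limma). *Stat2* was at 10.7, 8.08 and 7.63 FPKM in *Apc* Min/+ and 7.81, 10.5 and 7.60 FPKM in *Ctnnb1Δi.enh*;*Apc* Min/+ tumors, a log2 fold change of -0.03 (-0.45 to 0.39; adjusted p = 0.959 from limma). *Irf7* was at 13.9, 5.20 and 5.37 FPKM against 8.21, 18.5 and 10.5 FPKM, with a log2 fold change of 0.64 (-0.40 to 1.67; adjusted p = 0.505 from limma). Here the first *Apc* Min/+ library lay among the knockout libraries and the other 2 below all of them.

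*Isg15* showed the same picture, at 16.8, 4.41 and 4.78 FPKM in *Apc* Min/+ and 7.64, 17.6 and 14.3 FPKM in *Ctnnb1Δi.enh*;*Apc* Min/+ tumors. The log2 fold change of *Isg15*, 0.76, was the largest of the 9 genes in tumors (-0.52 to 2.04; adjusted p = 0.519 from limma). *Ifit3* was at 6.90, 1.67 and 1.92 FPKM against 2.88, 5.86 and 5.40 FPKM, a log2 fold change of 0.57 (-0.63 to 1.77; adjusted p = 0.604 from limma). *Oasl2* was at 7.05, 2.70 and 3.11 FPKM against 3.5, 8.25 and 5.07 FPKM, a log2 fold change of 0.39 (-0.58 to 1.35; adjusted p = 0.666 from limma). In each of these genes *Apc* Min/+ replicates 2 and 3 were the 2 lowest libraries of the table. *Ifit1* had the widest range, with 14, 2.33 and 3.10 FPKM in *Apc* Min/+ and 2.67, 9.67 and 5.50 FPKM in *Ctnnb1Δi.enh*;*Apc* Min/+ tumors, and its highest library was 6.01 times its lowest. *Rsad2* was at 3.32, 0.615 and 0.602 FPKM in *Apc* Min/+ and at 1.02, 1.16 and 1.32 FPKM in knockout tumors, close together in the knockouts and spread in the controls. For *Ifit1* and *Rsad2* the high first library brought the log2 fold changes to 0.13 and -0.01. *Bst2* was at 29.3, 14.4 and 24.7 FPKM in *Apc* Min/+ and 30.4, 31.8 and 30.5 FPKM in *Ctnnb1Δi.enh*;*Apc* Min/+ tumors (exact permutation test, two-sided p = 0.1), a log2 fold change of 0.49 (-0.09 to 1.07; adjusted p = 0.398 from limma).

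None of the 9 genes had an adjusted p under 0.05 in tumors, nor did any of the 16743 tested genes (0%) by limma or by voom on recovered fragments. None had an unadjusted p under 0.05, against 1417 of all tested genes higher (8.46%) and 1004 lower (6.0%) in *Ctnnb1Δi.enh*;*Apc* Min/+ tumors. *Bst2* was the only one of the 9 with groups that did not overlap, 1 gene higher and 0 lower, against 11.4% of all tested genes higher and 10.6% lower, and it overlapped once the libraries were rescaled to the same total or without the 50 highest genes, or quantile normalized. By log2 fold change, 6 of the 9 genes were higher and 3 lower, and 7 were higher with quantile normalization, where *Rsad2* turned. *Ifit1* counts among the higher genes, although its mean FPKM was 6.47 in *Apc* Min/+ and 5.95 in knockout tumors. The median log2 fold change was 0.39, beside 0.01 over all tested genes. Whether the difference between knockout and control differs between crypts and tumors was not tested. The paper, which tested counts with DESeq2, reports downregulated and upregulated genes in these tumors and reduced Wnt targets in crypts. The 0 calls over all tested genes thus belong to the tests used here.

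These values depended on single libraries. *Apc* Min/+ replicate 1 was 5.46 times the mean of the other 2 *Apc* Min/+ libraries for *Rsad2*, 5.15 times for *Ifit1*, 3.85 times for *Ifit3*, 3.66 times for *Isg15*, 2.63 times for *Irf7* and 2.43 times for *Oasl2*, but 1.5 times for *Bst2*, 1.37 times for *Stat2* and 1.15 times for *Irf1*. Without it, all 9 genes were higher in *Ctnnb1Δi.enh*;*Apc* Min/+ tumors, with a median log2 fold change of 0.77. This library was the highest control for each of the 9 genes, so leaving it out raises each log2 fold change by construction. An unadjusted p under 0.05 was then found for 5 of the 9 genes, beside 9.79% of all tested genes higher, and 6 did not overlap, beside 19.7% higher. These 5 were *Isg15* (log2 fold change 1.35, adjusted p = 0.189 from limma), *Ifit3* (1.14, adjusted p = 0.198), *Irf7* (1.08, adjusted p = 0.219), *Bst2* (0.69, adjusted p = 0.23) and *Rsad2* (0.58, adjusted p = 0.25), and 0 of the 9 had an adjusted p under 0.05. *Oasl2* also did not overlap (0.77). In tumors the 9 genes varied together (36 of 36 pairs with a Pearson r above 0, median 0.74), so these are not counts of independent genes. Other libraries moved the median the other way. Without *Ctnnb1Δi.enh*;*Apc* Min/+ replicate 2 it was 0.09, with 5 genes higher and 4 lower, and without *Apc* Min/+ replicate 2 it was 0.15, with 6 higher and 3 lower. With all libraries kept, the values of these genes in *Apc* Min/+ tumors span most of the range of both groups.

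**Figure D3:**
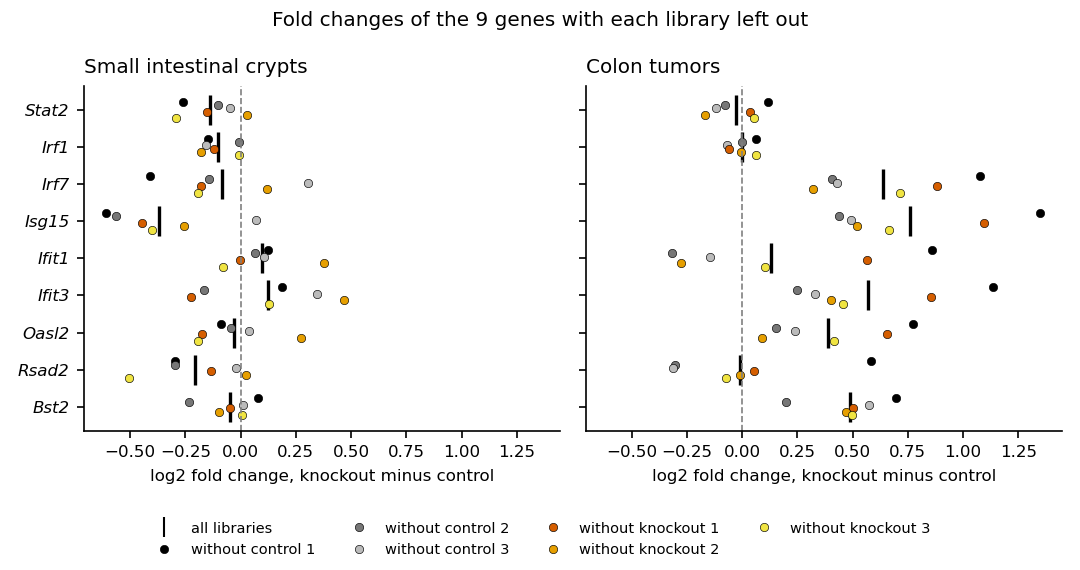
Log2 fold changes of the 9 genes, knockout minus control, with each library left out in turn, in crypts (left) and colon tumors (right). Points are fits without 1 library, colored by the library left out, and vertical bars are fits with all 6. Leaving out the first *Apc* Min/+ library (control 1, tumors) gives the highest value for each of the 9 genes, up to 1.35 for *Isg15*.

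The same libraries were high for other interferon-stimulated genes. Of 51 tested effectors of the type I and III response, a list without the 9 genes, 25 (49.0%) had their highest FPKM in *Apc* Min/+ replicate 1 and 16 (31.4%) in *Ctnnb1Δi.enh*;*Apc* Min/+ replicate 2, where 10.3% and 19.7% of all tested genes had theirs. For the 9 genes these counts were 5 and 4. In crypts, 31 of 52 tested effectors (59.6%) had their lowest FPKM in *Ctnnb1Δi.enh* replicate 2, against 12.7% of all tested genes, and so did 5 of the 9. Genes known as targets of interferon gamma, guanylate-binding proteins and other GTPases among them, were spread differently. In crypts, 9 of 20 peaked in wild-type replicate 1 (20.3% of all tested genes) and 10 in wild-type replicate 2 (14.4%). In tumors, 11 of 20 peaked in *Apc* Min/+ replicate 3 (21.9% of all tested genes), and 4 and 5 of 20 in *Apc* Min/+ replicate 1 and *Ctnnb1Δi.enh*;*Apc* Min/+ replicate 2, the libraries in which the 9 genes peaked.

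**Figure D4:**
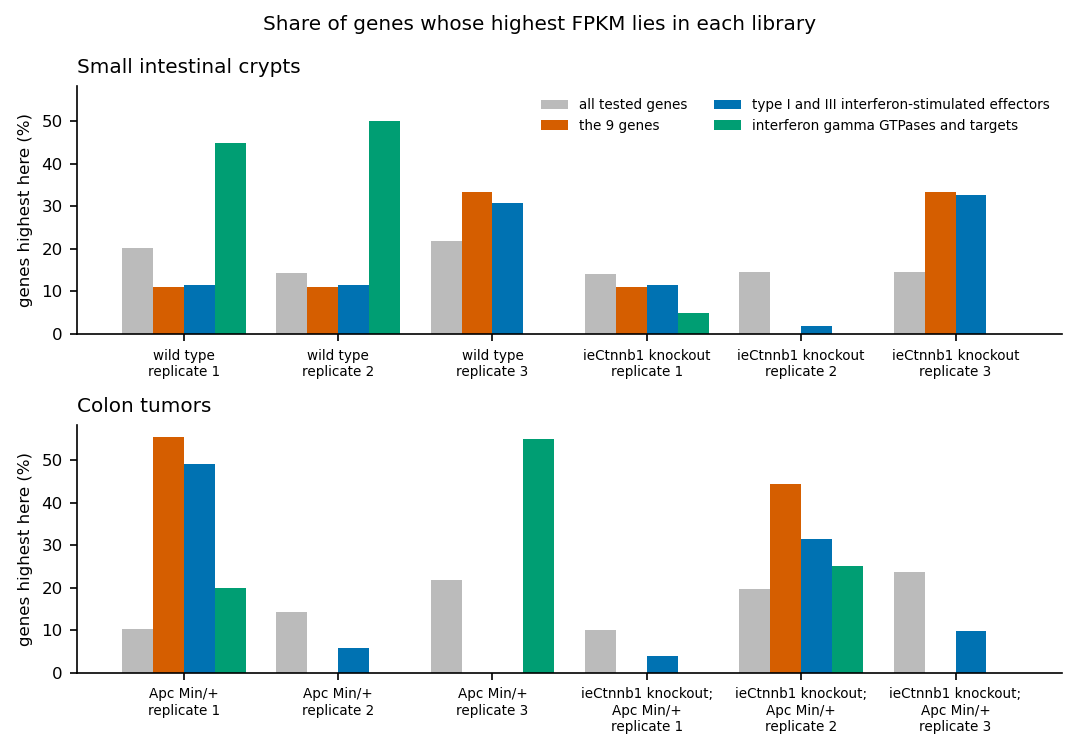
Share of genes, in percent, whose highest FPKM lies in each of the 6 libraries of crypts (top) and of colon tumors (bottom). Bars stand for all tested genes, the 9 genes, the type I and III effectors and the interferon gamma GTPases and targets. In tumors the 9 genes peak in *Apc* Min/+ replicate 1 (55.6%) and knockout replicate 2 (44.4%), and the interferon gamma list in *Apc* Min/+ replicate 3 (55%).

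The rest of the pathway was read from 136 listed genes, of which 106 were tested in crypts and 107 in tumors, and none had an adjusted p under 0.05 in either. Of the 21 interferon genes themselves, 0 passed the filter in either tissue. In crypts 15 of them were at 0 in all 6 libraries and *Ifng* reached the highest single value (0.645 FPKM), and in tumors 17 were at 0 and *Ifnk* was highest (0.309 FPKM). All 6 receptor genes were tested, with 3 higher and 3 lower in each tissue (2 and 4 in crypts with quantile normalization or without the 50 highest genes). The shared receptor chain *Il10rb* was at 8.30, 8.45 and 8.24 FPKM in *Apc* Min/+ and 10.4, 11.8 and 10 FPKM in *Ctnnb1Δi.enh*;*Apc* Min/+ tumors (log2 fold change 0.34, adjusted p = 0.275 from limma). *Ifngr2*, a chain of the interferon gamma receptor, had the smallest unadjusted p among listed genes that were higher in knockout crypts (log2 fold change 0.26, adjusted p = 0.86 from limma). Among 9 kinases, STAT and IRF factors, 6 were higher and 3 lower in each tissue, but 3 higher and 6 lower in crypts without the 50 highest genes in the scaling. *Irf9*, named here for its role in ISGF3 after its values had been seen, was at 13.1, 12.8 and 13.4 FPKM in *Apc* Min/+ and 11.6, 13.0 and 13.8 FPKM in knockout tumors. Its *Apc* Min/+ replicate 1 lay between the other 2 *Apc* Min/+ libraries.

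Sensors of nucleic acids and their adaptors were divided. Of 13 tested in crypts 6 were higher and 7 lower, and of 15 in tumors 7 were higher and 8 lower. The split moved with the scaling and with single libraries. In crypts it was 7 and 6 with the same total, 5 and 8 with quantile normalization and 4 and 9 without the 50 highest genes. In tumors it was 8 and 7 with quantile normalization. With a library left out it ran in crypts from 5 and 8 without knockout replicate 3 to 8 and 5 without knockout replicate 2. In tumors it ran from 4 and 11 without *Apc* Min/+ replicate 3 to 9 and 6 without *Apc* Min/+ replicate 1. Without knockout replicate 2 it was 5 and 10 there, with 3 lower at an unadjusted p under 0.05, beside 5.99% of all tested genes lower. *Mavs*, the adaptor of the cytosolic RNA sensors, and *Ticam1*, the adaptor of the receptor TLR3, had log2 fold changes of 0.22 and 0.24 in crypts (adjusted p = 0.86 and 0.861 from limma). *Aim2*, a sensor of cytosolic DNA, was at 22.3, 22.7 and 24.6 FPKM in *Apc* Min/+ and 19.7, 18.5 and 17.7 FPKM in *Ctnnb1Δi.enh*;*Apc* Min/+ tumors, without overlap (log2 fold change -0.31, adjusted p = 0.27 from limma). Of the type I and III effectors, 24 of 52 were higher in crypts (median log2 fold change -0.02, with 26 of 52 for the same total, 23 of 52 with quantile normalization and 19 of 52 without the 50 highest genes) and 29 of 51 in tumors (median 0.02, with 25 of 51 for the same total or without the 50 highest genes and 32 of 51 with quantile normalization, median 0.05). *Ifi27*, a gene induced by interferon alpha, was at 18.5, 13.8 and 13.7 FPKM in *Apc* Min/+ and 20.5, 23.4 and 23.4 FPKM in knockout tumors (log2 fold change 0.55, adjusted p = 0.269 from limma). *Epsti1* did not overlap either (0.32, adjusted p = 0.28 from limma), and *Phf11b* had a log2 fold change of -0.70 in crypts (adjusted p = 0.821 from limma). In tumors, 5 of the 107 tested genes of all these lists were higher and 4 lower without overlap, beside 11.4% and 10.6% of all tested genes. Without *Apc* Min/+ replicate 1, 39 of 50 tested effectors were higher in tumors (median 0.19), 11 of them at an unadjusted p under 0.05, beside 9.79% of all tested genes, but 22 of 51 were higher without knockout replicate 2 (median -0.05). In crypts, 38 of 52 were higher without *Ctnnb1Δi.enh* replicate 2 (median 0.14) and 13 of 52 without *Ctnnb1Δi.enh* replicate 3 (median -0.15).

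The interferon gamma list was lower in most of its genes in both tissues, 16 of 20 tested genes in each, with median log2 fold changes of -0.19 in crypts and -0.30 in tumors. This direction held for the list's median under each scaling and with each library left out. In each tissue 2 of 20 genes, both lower, had an unadjusted p under 0.05, beside 2.36% of all tested genes lower in crypts and 6.0% in tumors. *Gbp3*, a guanylate-binding protein, was at 2.45, 2.16 and 2.09 FPKM in wild-type and 1.41, 1.46 and 1.57 FPKM in *Ctnnb1Δi.enh* crypts (log2 fold change -0.46, adjusted p = 0.797 from limma). In tumors the 2 genes were *Tgtp1* (-0.88, adjusted p = 0.327) and *Gbp9* (-0.74, adjusted p = 0.342 from limma). In crypts the list moved with wild-type replicate 3. Without it 9 genes were lower at an unadjusted p under 0.05, beside 2.49% of all tested genes (median -0.42). Without wild-type replicate 2 the median was -0.01, with 9 higher and 11 lower. The number lower at an unadjusted p under 0.05 was 1 with any other library left out, beside 1.53% to 4.52%. It was 1 with the same total (2.04%) or quantile normalization (2.31%), and 3 without the 50 highest genes (3.35%). In tumors the number was 8 without *Apc* Min/+ replicate 2, beside 3.27% (median -0.54), and 0 without *Apc* Min/+ replicate 1, *Apc* Min/+ replicate 3 or knockout replicate 2. Without *Apc* Min/+ replicate 3 the median was -0.11, with 6 higher and 14 lower. Of 6 tested negative regulators, 3 were higher and 3 lower in crypts (median -0.03, and 2 and 4 with a median of -0.16 without knockout replicate 3). In tumors 6 were lower (median -0.14), but 5 without *Apc* Min/+ replicate 1 or 3 or knockout replicate 1 or 2, and the median ran from -0.21 without *Apc* Min/+ replicate 2 to -0.07 without knockout replicate 2. *Socs3*, a suppressor of cytokine receptor signaling, was at 18.7, 20.5 and 37.2 FPKM in wild-type and 11.9, 14.7 and 14.7 FPKM in knockout crypts (log2 fold change -0.80, adjusted p = 0.799 from limma).

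**Figure D5:**
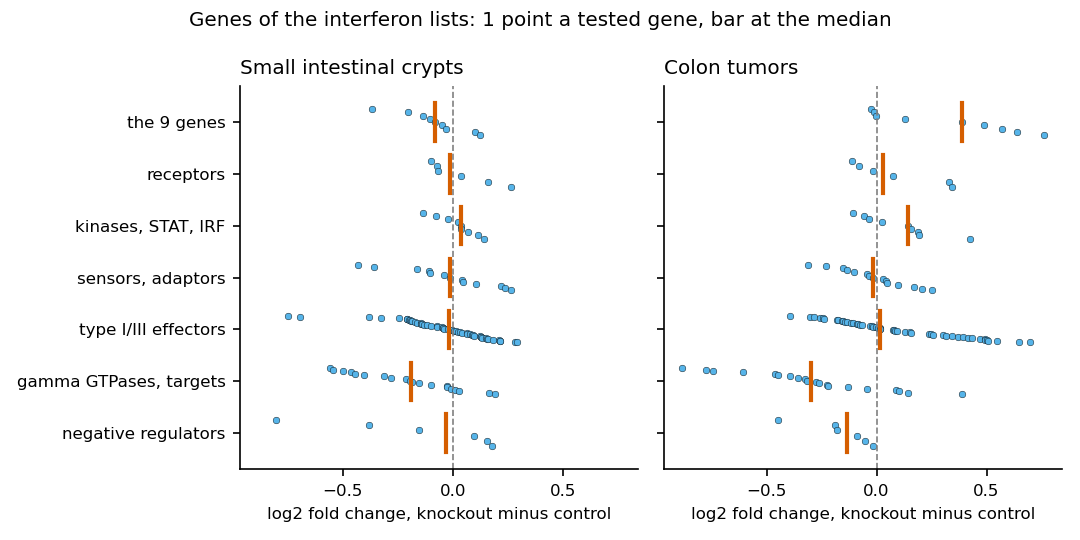
Log2 fold changes, knockout minus control, of the tested genes of each interferon list in crypts (left) and colon tumors (right). Each point is a gene, spread vertically in order of its value, and the bar is the median of the list. The 9 genes have a median of -0.08 in crypts and 0.39 in tumors, and the interferon gamma list lies mostly below 0 in both (-0.19 and -0.30).

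The genes whose pattern over the 12 libraries was most like the mean of the 9 genes were sought among 11555 other genes with a mean of at least 1 FPKM in both tables, each centred on the mean of its table. The closest 10, by Pearson r, were *Oasl1* (0.946), *Ddx60* (0.923), *Ptk2b* (0.914), *Oas2* (0.908), *Oas3* (0.904), *Snx12* (0.895), *Ifi27l2b* (0.894), *Rundc3b* (0.880), *Trim40* (0.878) and *Samhd1* (0.875). Of these 10, 5 are in the list of type I and III effectors. The libraries of a table share their normalization, and the r are given as a description. In crypts the 9 genes did not share 1 pattern: 23 of 36 pairs had an r above 0, and *Irf1* had a negative r with each of the other 8 genes (median -0.44). The mean of the 9 genes also spread more between libraries of a group in tumors than in crypts (standard deviation 0.57 and 0.28), so tumors weigh more in r over 12 libraries. For *Samhd1* r was 0.62 in crypts and 0.92 in tumors. *Ifi27l2b* was the most abundant of them, with a mean of 191 FPKM in crypts and 39.6 FPKM in tumors.

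Cell type markers varied between the same libraries. In bulk tissue, fewer cells of a type and less RNA per cell cannot be told apart. For Paneth cells the paper has other evidence, a lower proportion in knockout crypts by single-cell sequencing and by staining. Crypt libraries expressed epithelial markers strongly, led by *Krt8* (mean 1669 FPKM), and Paneth cell markers, led by *Defa24* (12578 FPKM). Markers of neutrophils were near 0 in crypts, with *S100a8* and *Ly6g* at 0 in all 6 libraries and *Csf3r* highest at a mean of 0.0998 FPKM. Summed enterocyte markers (*Fabp2* most abundant) were at 3038, 4575 and 8971 FPKM in wild-type and 6818, 5087 and 7824 FPKM in *Ctnnb1Δi.enh* crypts, and 6 of 6 were higher by log2 fold change (5 of 6 without wild-type replicate 1 or 2 or knockout replicate 3). By mean FPKM, *Apoa1*, a listed marker picked out here after its values had been seen, was lower in the knockout (2094 and 1976 FPKM). Summed Paneth cell markers were at 21724, 31971 and 61573 FPKM and 23911, 21351 and 22242 FPKM, with 6 of 6 lower. Of these, 2 did not overlap, beside 5.15% of all tested genes lower, and 1 had an unadjusted p under 0.05 from limma, beside 2.36%. Wild-type replicate 3, the library with the highest *Irf7* and *Isg15*, thus also had the highest sums of both lists. Leukocyte markers (4 of 4 lower, *Coro1a* most abundant) summed to 45.7, 50.5 and 52.4 FPKM in wild-type and 41.7, 47.8 and 39.0 FPKM in knockout crypts. Of T cell markers, led by *Gzma*, 4 of 9 were higher, with sums of 346, 344 and 446 FPKM and 358, 338 and 352 FPKM. Macrophage and dendritic cell markers (4 of 4 tested lower, *Lyz2* most abundant) summed to 17.2, 17.0 and 18.6 FPKM and 13.8, 17.0 and 10.2 FPKM, and B and plasma cell markers (5 of 5 lower, *Jchain* most abundant) to 30.8, 32.4 and 31.4 FPKM and 21.6, 29.5 and 23.1 FPKM. Fibroblast markers, led by *Dcn*, summed to at most 5.63 FPKM and endothelial markers, led by *Pecam1*, to at most 0.797 FPKM in a crypt library. Colon epithelium markers, led by *Car4*, summed to 79.7, 65.6 and 56.1 FPKM in wild-type and 106, 105 and 136 FPKM in knockout crypts. Of 3 tested, 2 were higher and 1 was lower. Both higher genes were without overlap, beside 6.79% of all tested genes, and at an unadjusted p under 0.05 from limma, beside 3.48%. After adjustment 0 passed. The part of these cell types in the levels of the 9 genes was not tested.

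In tumors, summed enterocyte markers (*Fabp2* most abundant, 1 of 6 genes tested) were low, at 3.30, 0.801 and 0.731 FPKM in *Apc* Min/+ and 1.94, 6.69 and 2.0 FPKM in *Ctnnb1Δi.enh*;*Apc* Min/+ tumors. The same libraries, knockout replicate 2 and *Apc* Min/+ replicate 1, were the highest for these markers and for *Ifit3* and *Oasl2*. Epithelial markers, again led by *Krt8*, were higher without overlap for 6 of 6 genes, beside 11.4% of all tested genes, but without overlap for 4 of 6 with the same total or without the 50 highest genes, and higher for 4 of 6 and overlapping with quantile normalization. They summed to 4079, 4158 and 3607 FPKM against 4819, 4673 and 4969 FPKM. Fibroblast markers were higher for 5 of 5 genes, with *Col1a1* most abundant and sums of 340, 213 and 205 FPKM against 342, 444 and 355 FPKM. Of these 5, 4 had an unadjusted p under 0.05, beside 8.46% of all tested genes, but 1 with quantile normalization and 1 without knockout replicate 2 or *Apc* Min/+ replicate 2. As for *Isg15* and *Irf7*, *Apc* Min/+ replicates 2 and 3 had the lowest sums of this list. B and plasma cell markers, led by *Jchain*, showed the same 2 libraries lowest, at 270, 76.0 and 121 FPKM against 236, 181 and 131 FPKM. Without *Apc* Min/+ replicate 1, 5 of 5 fibroblast and 3 of 3 tested B and plasma cell markers were higher at an unadjusted p under 0.05, beside 9.79% of all tested genes. Leukocyte markers, led by *Coro1a*, summed to 60.5, 41.6 and 43.9 FPKM against 57.8, 64.7 and 37.1 FPKM, and macrophage and dendritic cell markers, led by *Lyz2*, to 434, 285 and 490 FPKM against 389, 544 and 290 FPKM. Neutrophil markers, led by *S100a9*, were divided, with 3 of 4 lower in the knockout and sums of 222, 451 and 319 FPKM against 232, 131 and 246 FPKM. Of these 3, 2 were at an unadjusted p under 0.05, beside 6.0% of all tested genes lower, and 0 without *Apc* Min/+ replicate 2 or 3 or knockout replicate 2. The fourth, *Ly6g*, was higher without overlap, at 27.3, 29.7 and 28.6 FPKM against 46.1, 36.5 and 63.4 FPKM (log2 fold change 0.73, adjusted p = 0.27 from limma). T cell markers, led by *Trac*, summed to 11.3, 12.8 and 12.9 FPKM against 13.1, 9.95 and 11.8 FPKM, with 4 of 5 tested lower (3 with quantile normalization). *Gzma* was lower without overlap, at 0.675, 1.39 and 1.2 FPKM against 0.432, 0.310 and 0.510 FPKM, from as few as 5 fragments (log2 fold change -0.77, adjusted p = 0.298 from limma). It was the 1 of the 5 at an unadjusted p under 0.05, and 0 T cell markers were without *Apc* Min/+ replicate 2 or 3. Endothelial markers, led by *Cdh5*, summed to 31.6, 28.9 and 24.9 FPKM against 32.7, 33.0 and 33.5 FPKM, each knockout above each control, with 3 of 4 higher (2 without *Apc* Min/+ replicate 3). Of them *Pecam1* did not overlap, at 8.93, 7.15 and 6.93 FPKM against 10.3, 10.8 and 11.1 FPKM (log2 fold change 0.47, adjusted p = 0.269 from limma). *Ly6g*, *Gzma* and *Pecam1* were picked out after their tumor values had been seen, and of all tested genes 11.4% were higher and 10.6% lower without overlap. Paneth cell markers, led by *Lyz1*, summed to 1625, 1751 and 1826 FPKM against 2526, 4026 and 1366 FPKM, with the highest values of 6 of 6 genes in knockout replicate 2 and the lowest of 5 in knockout replicate 3. They were higher for 6 of 6 genes (5 under the other scalings), with a median log2 fold change of 0.49, and for 4 of 6 without knockout replicate 2 (median 0.08). Without knockout replicate 3 the median was 0.89, with 4 of 6 at an unadjusted p under 0.05, beside 6.41% of all tested genes higher, and 5 of 6 not overlapping, beside 16.0%. Colon epithelium markers, led by *Car1*, summed to 87.3, 79.2 and 90.5 FPKM against 108, 235 and 146 FPKM, with 5 of 5 higher (4 without *Apc* Min/+ replicate 1). Plasmacytoid dendritic cells are a known source of type I interferon. Their list was carried by *Klk1* in both tissues (means of 126 FPKM in crypts and 136 FPKM in tumors). Its sums therefore follow *Klk1* and are not a measure of these cells. The list summed to 109, 172 and 137 FPKM in wild-type and 84.2, 113 and 150 FPKM in knockout crypts. In tumors it summed to 87.7, 119 and 117 FPKM against 169, 142 and 185 FPKM, each knockout above each control, and *Klk1*, the 1 gene of the list tested there, was higher without overlap (log2 fold change 0.61, adjusted p = 0.272 from limma), as were 11.4% of all tested genes. *Siglech*, a more specific marker, was at most 0.622 FPKM in a crypt library and 0.365 FPKM in a tumor library. The part of these cell types in the tumor values was not tested either.

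Some of the 9 genes share sequence or position with others. *Ifit3* has a closely related neighbour, *Ifit3b*, on the same strand of chromosome 19, and 31.7% of the 100-base windows of its longest transcript also occur in *Ifit3b*, so the split of fragments between them is uncertain. *Ifit3b* was at 3.06, 0.606 and 0.635 FPKM in *Apc* Min/+ and 1.09, 2.12 and 2.57 FPKM in *Ctnnb1Δi.enh*;*Apc* Min/+ tumors, the pattern of *Ifit3*. For *Ifit1*, 3.29% of windows were shared with *Ifit1bl2*, and for 6 of the 9 genes 0% were shared with another gene. *Irf1* overlaps *Gm17334* on the opposite strand by 907 bases, and *Irf7* overlaps *Phrf1* by 45. *Gm17334* was low (means of 1.11 FPKM in crypts and 0.635 FPKM in tumors). Of the 100-base windows of the longest *Irf1* transcript, 0.0981% also occur in *Gm17334*. The use of strand in counting is not given in the sources used here, so reads of the 2 genes in shared bases cannot be told apart. *Phrf1* was at a mean of 7.0 FPKM in crypts and 13.2 FPKM in tumors.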

How the data were processed

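Groups were taken from the sample labels. The authors deposited FPKM per gene and library, in 1 table for each tissue. According to the methods, reads were aligned with Hisat2 and counted with featureCounts. The submitters' processing notes name cutadapt, HISAT2, Cufflinks 2.2.1, DESeq2 and build mm10. How FPKM were computed, and whether counting used strand, are not given in the sources used here. FPKM times gene length was a whole multiple (within 0.05) of 1 step in each library, which gave fragments and the depth.

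The test was limma (version 3.58.1, run in R 4.3.3). It took FPKM after adding 0.5 and taking log2, used a variance trend, and ran over genes with a mean of at least 0.5 FPKM in the 6 libraries of a table, two-sided, with Benjamini-Hochberg adjustment over all tested genes and a threshold of 0.05. It was tested on simulated data, whose outcome is not given here. Named genes are the 9 genes, *Ctnnb1*, up to 3 genes per direction and tissue from the interferon lists (by smallest unadjusted p, as none passed adjustment), the most abundant marker of each list and those at 0, the 10 genes most alike, and overlapping or closely related genes. *Irf9*, *Siglech*, *Apoa1*, *Gzma*, *Pecam1*, *Ly6g* in tumors and genes called only under alternatives were added after their values had been seen. The 9 genes and the lists were chosen with earlier results of these data known. Alternatives changed the pseudocount, filter, scaling, variance model or tool (voom), took the replicate number as a block, or left out each library.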

Additional observations from a re-analysis of the deposited data

How the results depend on the processing

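Of the 9 genes, 0 had an adjusted p under 0.05 under any alternative in either tissue. With a library left out, 0 to 3 genes were called in crypts, and the 3 without wild-type replicate 3 were *Gkn1*, *Gkn2* and *Pgc*. In tumors 0 were called but for 1, *Mir3473e*, without the variance trend. In crypts, the number of the 9 with an unadjusted p under 0.05 ran from 0 to 1 and the number not overlapping from 0 to 2 with a library left out, beside 1.7% to 5.23% and 9.52% to 15.5% of all tested genes higher and 1.53% to 4.52% and 8.47% to 12.6% lower. In tumors these ran from 0 to 5 and from 1 to 6, each of them higher, beside 5.09% to 9.79% and 14.8% to 20.1% of all tested genes higher, and 0 did not overlap after rescaling to the same total, quantile normalization or rescaling without the 50 highest genes. The median log2 fold change of the 9 ran from -0.19 to 0.04 in crypts and from 0.09 to 0.77 in tumors with a library left out. Signs turned for single genes that did not pass the test. *Rsad2* in tumors was at 0.074 with a pseudocount of 0.1, 0.023 with quantile normalization and 0.10 with voom. With a library left out, log2 fold changes in crypts ran from -0.23 to 0.080 for *Bst2*, -0.23 to 0.47 for *Ifit3*, -0.41 to 0.31 for *Irf7*, -0.61 to 0.070 for *Isg15*, -0.19 to 0.27 for *Oasl2*, -0.080 to 0.38 for *Ifit1*, -0.29 to 0.031 for *Stat2* and -0.51 to 0.023 for *Rsad2*, and in tumors from -0.17 to 0.12 for *Stat2*, -0.069 to 0.064 for *Irf1*, -0.31 to 0.58 for *Rsad2* and -0.32 to 0.86 for *Ifit1*. The cause was not tested. Libraries share only a replicate number: deviations of same-numbered libraries correlated between -0.12 and 0.04 in crypts and -0.09 and 0.05 in tumors. With the replicate block, 0 genes were called in crypts and 0 in tumors. In this balanced design the block cannot change log2 fold changes, so the medians of the 9 genes stay at -0.08 and 0.39 by construction. *Rsad2* in crypts was not tested with a mean of at least 1 FPKM. Depth limits *Rsad2* most, with 27 fragments in its lowest library.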
